A study of Mus musculus with 4 samples.

Results

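The cytosolic ribosomal protein genes were examined in K7M2 cells, a metastatic line derived from mouse osteosarcoma. The genes were chosen by symbol: Rpl or Rps followed by digits with an optional a, x, l, p or number ending, together with Rplp0 to Rplp2 and Rpsa, without kinases, pseudogenes or predicted genes. Of 18193 named genes 49 met this rule, 26 of the large and 23 of the small subunit, and each was represented by the brightest of its probe sets, out of 105 in all. The cells, grown in medium with fetal serum, over-expressed GFP in the control array (n = 1) and ezrinT567A-GFP in 3 arrays, called replicates 1, 2 and 3. Ezrin ties the membrane to actin filaments, and the ezrinT567A form carries alanine in place of the threonine that is phosphorylated near its C terminus. The labels give neither the promoter of the transgene nor whether the cells were clones or pools, and they do not say that the replicates were separate cultures, so p-values cover no more than the scatter among these arrays, which may be technical. All values are log2 signals normalized by RMA, and all differences are ezrinT567A-GFP minus GFP.

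The ribosome translates mRNA into protein and is built from ribosomal RNA and a large set of ribosomal proteins, most of them present once in each ribosome and therefore needed in like amounts. The small subunit reads the mRNA, and the large subunit joins amino acids and releases the chain through an exit tunnel. Mammalian ribosomal protein mRNAs are abundant in growing cells and carry a terminal oligopyrimidine (TOP) tract at their 5′ end, which makes their translation, more than their level, respond to mTOR. A few members have paralogs that are expressed in selected tissues or in tumours.

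The arrays carried the mesenchymal markers Col1a1 (11.3 in GFP), Col1a2 (12.3) and Vim (13.1). Of the osteoblast genes Sparc read 11.3, whereas Alpl (3.63) and Sp7 (5.05) had low signals. Macrophage and leukocyte markers were mixed: Ptprc (2.22), Adgre1 (2.76), Cd68 (3.89) and Lyz2 (4.69) were low, but Csf1r was bright at 11.9. The endothelial gene Pecam1 (2.52) lay near the bottom of the scale. All 5 epithelial markers were lower in each ezrinT567A-GFP array, by a median of -2.05, and their part in the results below was not tested. Ezr, the gene of which the ezrinT567A form was over-expressed, differed by 0.01 (SE 0.12), from 8.90 in the GFP array. Whether its probe set detects the transgene was not tested. Hybridization spike-ins averaged 9.32 in GFP and between 10.1 and 11.1 in the ezrinT567A-GFP arrays, and the 3′ minus 5′ difference of the Actb control probe sets was 0.23 in GFP and between 0.31 and 0.43. RNA came from whole cultures, so fewer cells with a transcript and less of it per cell cannot be told apart.

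The comparison asked whether cells with ezrinT567A-GFP differed from cells with GFP alone in their ribosomal protein mRNAs. Differences were small: 28 of the 49 genes (57.1%) lay within 0.1 of GFP, where 34.2% of all genes did. The median difference was -0.04, against 0.03 over all genes. The medians of replicates 1, 2 and 3 were -0.02, -0.06 and -0.04. In 24 genes all 3 ezrinT567A-GFP arrays lay below GFP, where 25.6% of all genes did, and in 9 all 3 lay above it, where 32.5% of all genes did. No gene had a mean at least 2-fold from GFP, against 1.68% of all genes, and in a single array only Rpl27a in replicate 2 was that far away. With limma 0 of the 49 genes had an adjusted p under 0.05 (0.0% of all genes), their adjusted p running from 0.234 to 0.999. At an unadjusted p under 0.05, 5 were lower and 1 higher, where 6.5% and 7.46% of all genes were. After each array was centred on its own median, the median over all genes moved from 0.03 to -0.02, and all 3 arrays lay below GFP in 33.4% of all genes and above it in 26.1%. On that scale the ribosomal protein genes had 31 below and 3 above and a median of -0.09. Centring moves every gene of an array by the same amount. The steps from 24 to 31 and from 9 to 3 are therefore wholly that shift.

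**Figure D1:**
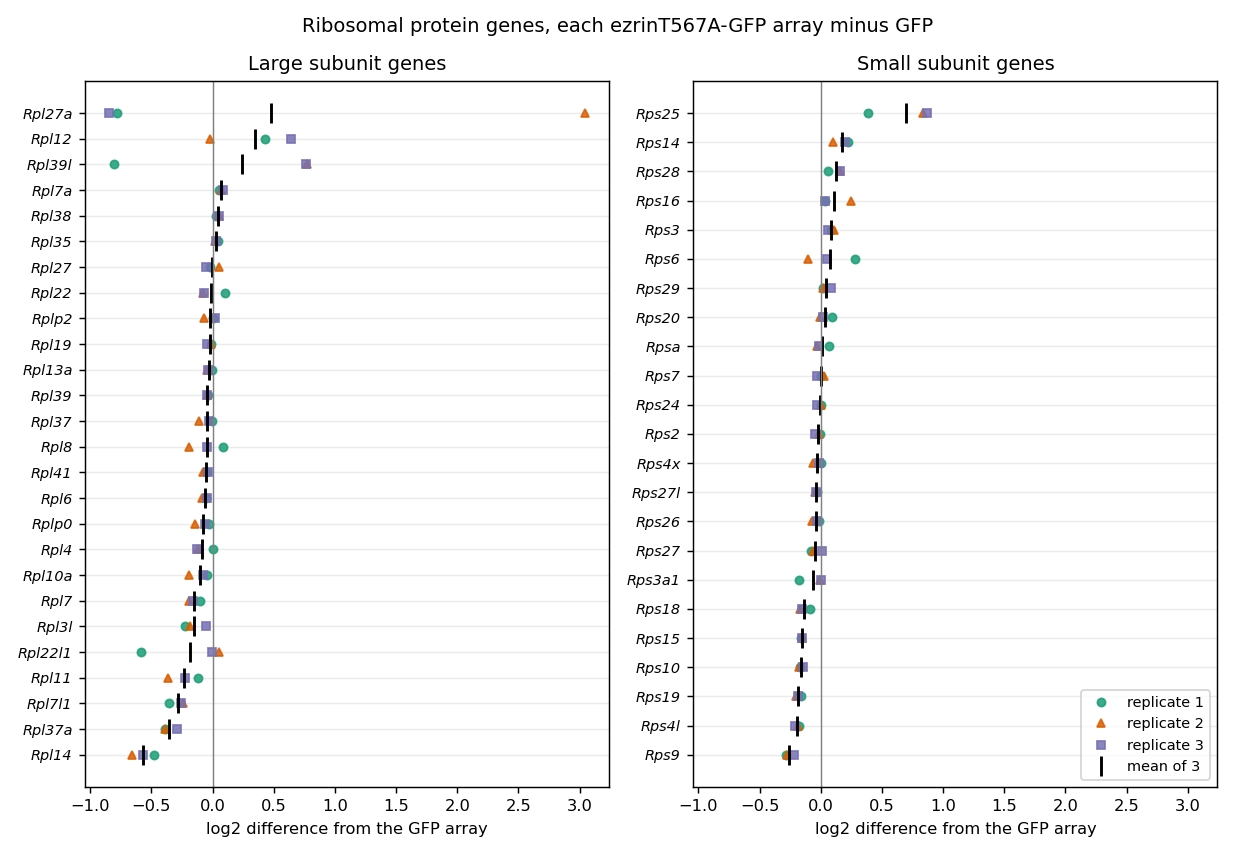
Log2 difference of each ezrinT567A-GFP array from the GFP array for the 26 large subunit genes (left) and the 23 small subunit genes (right), ordered by the mean of the 3 arrays (black bar). Most genes lie within 0.2 of 0, and Rpl27a in replicate 2 lies at 3.05.

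The probe sets were bright. In 34 of the 49 genes the mean over the 4 arrays was at least 12, where 13.6 was the highest mean of any named gene. These 34 genes differed from GFP by a median of 0.06 in either direction and varied over the 3 ezrinT567A-GFP arrays with a median SD of 0.04. The 43 other genes of such signal had a median absolute difference of 0.06 and a median SD of 0.06. Within 0.1 of GFP lay 28 of these 43 genes (65.1%) and 23 of the 34 (67.6%), so the 2 shares were alike. All 3 arrays lay below GFP in 9 of these 43 genes and in 17 of the 34. Over all genes the median absolute difference was 0.16 and the median SD 0.13. How far signals near the top of the scale are compressed was not tested. The 15 ribosomal protein genes with a lower signal had a median absolute difference of 0.18 and a median SD of 0.09.

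**Figure D2:**
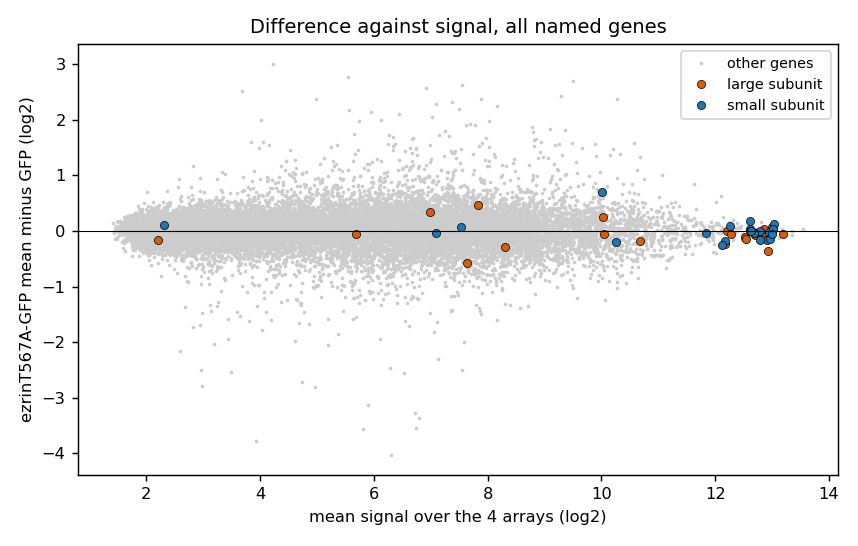
Difference between the ezrinT567A-GFP mean and GFP (log2) against mean signal over the 4 arrays (log2) for all 18193 named genes, with the large subunit genes in orange and the small subunit genes in blue. The ribosomal protein genes gather at the right end, where 34 of them have a signal of at least 12.

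Large subunit genes had a median difference of -0.05. In 14 of the 26 (53.8%) all 3 arrays lay below GFP, and in 3 (11.5%) above it, against 25.6% and 32.5% of all genes. The 14 include Rpl3l, whose signal was near the bottom of the scale. Rplp0, the base of the acidic stalk that recruits elongation factors, was 12.76 in GFP and 12.73, 12.62 and 12.70 in replicates 1, 2 and 3, a difference of -0.08 (SE 0.07). Its partner Rplp2 differed by -0.02 (SE 0.07), with arrays on both sides of GFP. Rpl11, which binds the 5S ribosomal RNA and, when free of ribosomes, the p53 regulator MDM2, was 12.35 in GFP and 12.23, 11.99 and 12.13 in the replicates. All 3 arrays lay below GFP, by -0.23 on average (SE 0.12, limma adjusted p = 0.458). Of the genes of the exit tunnel and its rim, Rpl4, Rpl19, Rpl35 and Rpl39 had a probe set, and their differences ran from -0.08 to 0.03. The mean signal of Rpl39 was only 5.68, where those of the others ran from 12.85 to 12.96.

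The lowest large subunit genes were Rpl14 and Rpl37a. Rpl14 was 8.06 in GFP and 7.58, 7.40 and 7.49 in replicates 1, 2 and 3. All 3 arrays lay below the single GFP array, as they did in 25.6% of all genes. The difference was -0.57 (SE 0.13, limma adjusted p = 0.252), which is 1.48-fold. Rpl37a, a zinc-finger protein of the large subunit, was 13.20 in GFP and 12.81, 12.81 and 12.91, again all below GFP. Its difference was -0.36 (SE 0.07), the smallest p of the 49 genes (limma adjusted p = 0.234), and its further probe sets gave -0.27 and -0.32. Rpl37a lies on chromosome 1, as does Rpl7, which differed by -0.15 (SE 0.07) with all 3 arrays below GFP. Over 510 genes of chromosome 1 with a signal above the median of all genes, the median difference was -0.34, and all 3 arrays lay below GFP in 371. Without Rpl37a and Rpl7 the median of the ribosomal protein genes was -0.03. On chromosome 17 lay 7 of the ribosomal protein genes, with a median of -0.14. All but Rps28 were lower by their means, as were 34 of all 49 members and 7984 of all 18193 genes. The lower ones include Rpl3l, near the bottom of the scale, and Rps2 at -0.02. The 7 on chromosome 7 had a median of -0.02. Whether genes of chromosome 17 shifted as a whole was not tested. On the higher side stood Rpl7a at 0.07 (SE 0.06) and Rpl38, which is known for its role in the translation of Hox mRNAs, at 0.04 (SE 0.06), each with all 3 arrays above GFP. After centring Rpl7a was 0.02 and Rpl38 -0.0042, both with arrays on both sides of GFP.

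Small subunit genes had a median difference of -0.02. All 3 arrays lay below GFP in 10 of 23 (43.5%) and above it in 6 (26.1%), against 25.6% and 32.5% of all genes. The 6 include Rps16, whose signal was near the bottom of the scale. Rps9, a protein of the mRNA entry side, was 12.32 in GFP and 12.04, 12.04 and 12.10 in replicates 1, 2 and 3. The difference was -0.26 (SE 0.07, limma adjusted p = 0.283), with all 3 arrays below GFP. Rps25, which several viral internal ribosome entry sites need, was 9.49 in GFP and 9.87, 10.32 and 10.35 in the replicates. It was the highest of the 49 genes relative to GFP, by 0.70 (SE 0.23, limma adjusted p = 0.331), or 1.62-fold, and replicate 1 lay closest to GFP. The names Rps25 and Rpl14 each rested on a single probe set whose signal was under 12.

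Among 9 genes of the small subunit head, all 3 arrays lay above GFP in 4 and below it in 4 (44.4% each, against 32.5% and 25.6% of all genes). Rps16, also of the head, was left out of this count because its signal of 2.23 in GFP is at the bottom of the scale, so this probe set does not show that it was measured. Rps19, the gene most often mutated in Diamond-Blackfan anaemia, was 12.31 in GFP and 12.15, 12.10 and 12.12 in the replicates, a difference of -0.18 (SE 0.07, limma adjusted p = 0.348). Rps10 differed by -0.16 (SE 0.06), Rps15 by -0.16 (SE 0.06) and Rps18 by -0.14 (SE 0.07), while Rps28 stood at 0.13 (SE 0.07), Rps3, which lines the mRNA entry channel, at 0.08 (SE 0.07) and Rps29 at 0.04 (SE 0.06). After centring Rps28 was 0.08 and Rps29 -0.0052, both with arrays on both sides of GFP. Outside the head, Rps14, the gene lost in the human 5q- syndrome, was 12.48 in GFP and 12.70, 12.59 and 12.68, higher by 0.17 (SE 0.08, limma adjusted p = 0.419). Rps6, the substrate of S6 kinase, was 7.47 in GFP and 7.75, 7.36 and 7.52, with arrays on both sides. The 11 measured Diamond-Blackfan genes had a median of -0.01.

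**Figure D3:**
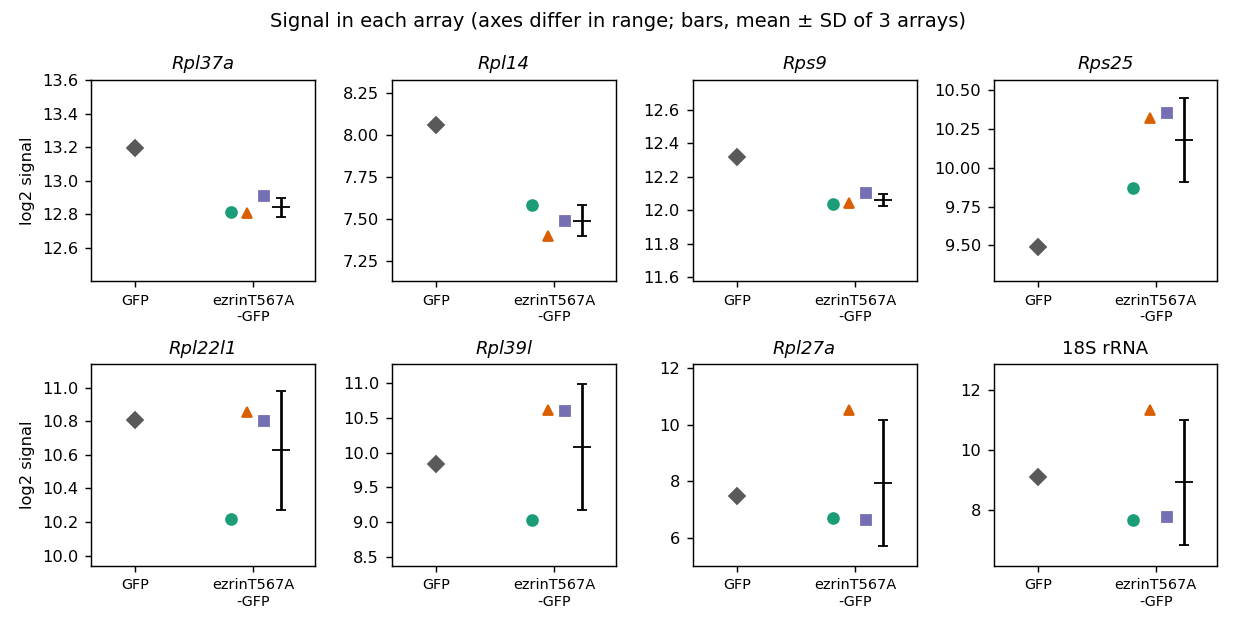
Log2 signal in the GFP array (grey diamond) and in ezrinT567A-GFP replicates 1 (green circle), 2 (orange triangle) and 3 (purple square), with the mean ± SD of the 3 replicates as a bar, for 7 ribosomal protein genes and for the mean of 3 18S rRNA control probe sets; the axes do not start at 0 and differ in range. The single GFP value lies above all 3 replicates for Rpl37a, Rpl14 and Rps9 and below them for Rps25. For Rpl22l1, Rpl39l and Rpl27a it lies within their range.

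Of 5 paralogs, 4 were lower and 1 higher than GFP by their means, with a median of -0.18. Lower by their means were also 34 of all 49 members and 7984 of all 18193 genes. Replicate 1 stood apart in a pair of the paralogs. Rpl39l, a paralog of the tunnel protein Rpl39 that is known from testis and some cancer lines, was 9.84 in GFP and 9.03, 10.61 and 10.60 in replicates 1, 2 and 3. Replicate 1 differed from GFP by -0.80 and the other replicates by 0.77 and 0.76, so GFP lay inside their range and the mean difference of 0.24 was smaller than its SE of 0.72. Rpl22l1, the paralog of Rpl22, was 10.81 in GFP and 10.22, 10.86 and 10.80. Again replicate 1 was low, by -0.59, and the other replicates lay within 0.05 of GFP. Rpl22 itself was 12.67 in GFP and 12.77, 12.59 and 12.60, so its replicate 1 lay above GFP.

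The remaining paralogs were even across replicates. Rpl7l1 was 8.51 in GFP and 8.16, 8.27 and 8.25, lower by -0.29 (SE 0.11, limma adjusted p = 0.380), while its further probe sets gave -0.11 and 0.02. Rps4l was 10.40 in GFP and 10.22, 10.21 and 10.19 in the replicates, a difference of -0.19 (SE 0.08), and its relative Rps4x, encoded on the X chromosome, differed by -0.03 (SE 0.06). Rps27l, a p53-inducible relative of Rps27, differed by -0.04 (SE 0.07), and Rps27 by -0.04 (SE 0.12). Rpl3l, the striated-muscle form of Rpl3, had a signal of 2.33 in GFP, near the bottom of the scale, and was left out of the counts of paralogs.

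The largest spread within the ezrinT567A-GFP arrays belonged to Rpl27a. Its probe set read 7.47 in GFP and 6.69, 10.52 and 6.63 in replicates 1, 2 and 3, an SD of 2.23. Replicate 2 alone lay above GFP, and without it the difference was -0.81. The control probe sets for 18S rRNA, the RNA of the small subunit, read 9.09 in GFP and 7.65, 11.35 and 7.76, so replicate 2 was highest and replicates 1 and 3 were lowest in both, and their part in the Rpl27a signal was not tested. A further Rpl27a probe set had a signal of 2.44 in GFP and of 2.72, 2.80 and 2.75 in the replicates. Rpl12 was also uneven, at 6.72 in GFP and 7.15, 6.70 and 7.36.

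Of the 49 genes 24 had more than 1 probe set, and in 14 of these the probe sets differed in sign. Bright probe sets of one gene were close: in 14 genes with several probe sets of signal at least 12, their differences spanned a median of 0.08 and at most 0.19. In the 19 genes with several probe sets of which at least 1 was under 12, the span ran from 0.01 to 0.80 with a median of 0.20. The 3 probe sets of Rps27l, all under 12, gave -0.04, 0.02 and -0.03. Among the widest, one for Rpl22 read 8.13 in GFP and 7.32, 7.26 and 7.38, a difference of -0.81 where the brightest gave -0.01, and one for Rps3 with a signal of 4.34 in GFP gave -0.65 where the brightest gave 0.08. Of the 49 representatives 32 were of the _a, _s or _x kinds, which can match several transcripts or related sequences, and ribosomal protein genes have many processed pseudogenes. Probe sets that list only pseudogenes or predicted genes beside 1 ribosomal protein gene, added after the values had been seen, brought in 24 further genes. Their median difference was -0.01 and their range -0.20 to 0.11, with all 3 arrays below GFP in 9 and above it in 6. Such probe sets also existed for 14 of the 49 genes, with differences from -0.21 to 0.33, and in 12 of the 14 the signal was at least 12. The highest differences, 0.33 and 0.25, came from dim sets that read 3.69 and 3.91 in GFP.

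**Figure D4:**
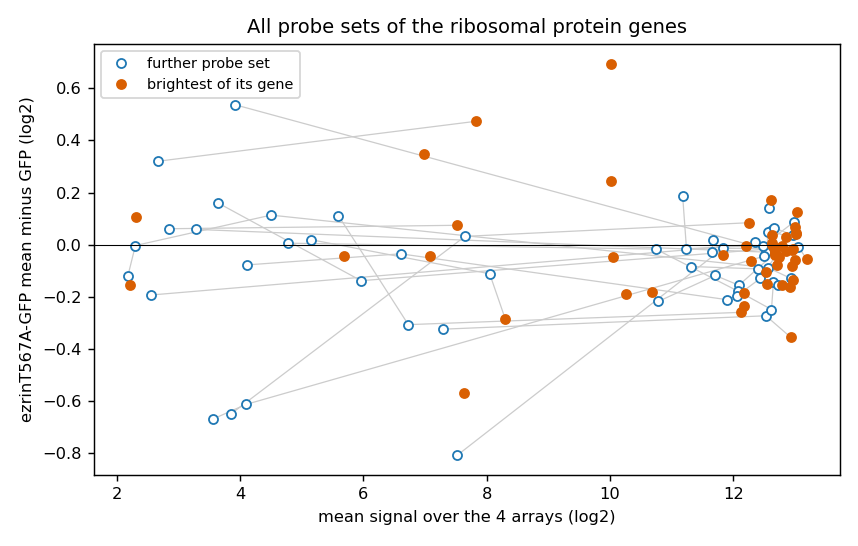
Difference between the ezrinT567A-GFP mean and GFP (log2) against mean signal (log2) for the 105 probe sets of the 49 genes, with grey lines joining probe sets of one gene and filled points marking the brightest. Probe sets with a signal of at least 12 lie between -0.36 and 0.17.

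Start regions are shown for the 4 genes with the smallest p (Rpl37a, Rpl14, Rps9 and Rps25), for Rpl35 and Rpl38, whose arrays barely differed, and for the paralogs Rpl22l1 and Rpl39l. They are taken from RefSeq in the build GRCm38.p6, from 40 bases before to 20 bases from the annotated start, which need not be the start used in these cells, and 43 of the 49 genes had an entry. Capitals mark the longest run of a C followed by at least 5 further pyrimidines (C or T), the kind of stretch in which TOP mRNAs begin.
Rpl35, chr2:39005112-39005171, minus strand: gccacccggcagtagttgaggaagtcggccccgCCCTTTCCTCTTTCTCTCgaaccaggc
Rpl38, chr11:114668540-114668599, plus strand: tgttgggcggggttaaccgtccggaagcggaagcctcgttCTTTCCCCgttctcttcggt
Rpl14, chr9:120571477-120571536, plus strand: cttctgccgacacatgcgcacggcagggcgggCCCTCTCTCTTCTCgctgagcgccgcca
Rpl37a, chr1:72711220-72711279, plus strand: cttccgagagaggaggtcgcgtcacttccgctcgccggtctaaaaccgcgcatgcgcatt
Rps9, chr7:3704001-3704060, plus strand: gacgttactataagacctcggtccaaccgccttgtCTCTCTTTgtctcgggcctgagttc
Rps25, chr9:44407674-44407733, plus strand: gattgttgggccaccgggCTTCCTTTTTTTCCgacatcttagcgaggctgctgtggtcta
Rpl22l1, chr3:28805468-28805527, plus strand: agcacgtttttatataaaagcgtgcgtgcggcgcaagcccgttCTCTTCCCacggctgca
Rpl39l, chr16:10170188-10170247, plus strand: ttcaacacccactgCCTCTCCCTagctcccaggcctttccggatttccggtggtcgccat
Such a run on the gene's strand, within 30 bases either side of the start, was found in 31 of the 43 genes (72.1%) and in 43.8% of 27025 genes with an entry. It was present in genes that were lower (Rpl14), higher (Rps25) and level (Rpl35), and Rpl37a also had one within that window, past the end of the stretch printed. Over the 300 bases of the entries and on both strands, CCGGAAG, the core bound by ETS factors, was found in 48.8% of the ribosomal protein genes and 9.9% of all genes, and ATGGCG, the core of the YY1 site, in 37.2% and 10.2%. GGGCGG, the core of the SP1 site, was found in 58.1% and 38.2%, and TATAAA in 6 of the 43 genes and in 15.7% of all genes. The reverse complement of CCGGAAG starts with pyrimidines and can overlap such a run, and ATGGCG shares letters with GGGCGG. A match describes letters and does not show that a factor binds.

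Other genes of translation were read from lists fixed for this comparison. Of 12 other TOP mRNAs 11 lay within 0.1 of GFP (91.7%, against 34.2% of all genes), with a median of -0.01. Their mean signals were all at least 9.25. Of the 43 genes outside the ribosomal proteins with a signal of at least 12, which hold 5 of these 12, 65.1% lay within 0.1. Tpt1, the translationally controlled tumour protein, differed by -0.08 (SE 0.06) and Naca by 0.05 (SE 0.06). The initiation factor Eif4b, of the same list, was 11.06 in GFP and 10.93, 10.71 and 10.75 (difference -0.27, SE 0.12). Fau, whose product is cut to give a small subunit protein, differed by -0.08 (SE 0.07). The 7 measured genes of the elongation factor list had a median of 0.01. The list holds Eef1e1 and Eef2k, which are not themselves elongation factors. Eef1a1, which brings aminoacyl-tRNA, stood at 0.04 (SE 0.06), and Eef1b2, which lies on chromosome 1, at -0.16 (SE 0.07). Eef1e1 stood at -0.30 (SE 0.09, limma adjusted p = 0.305).

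Of 27 assembly factors 10 had all 3 arrays above GFP (37.0%, against 32.5% of all genes) and 2 below (7.41%, against 25.6%), and the median was 0.05. Tsr2, the chaperone of Rps26, was 7.50 in GFP and 8.29, 7.87 and 8.07, higher by 0.57 (SE 0.19, limma adjusted p = 0.334), while Rps26 itself differed by -0.04 (SE 0.06). Mdn1, the ATPase that remodels large subunit precursors, was higher by 0.56 (SE 0.17), Pes1 by 0.27 (SE 0.11) and Eif6, which keeps the subunits apart, by 0.25 (SE 0.09). The 2 factors with all 3 arrays below GFP, named after their values were seen, were Riok2 and Rrs1. Riok2, a kinase of late small subunit assembly that lies on chromosome 17, stood at -0.46 (SE 0.25). Rrs1, which helps to bring in the 5S particle and lies on chromosome 1, stood at -0.38 (SE 0.25). The 76 mitochondrial ribosomal protein genes, which build a separate ribosome, had a median of 0.04 and a median absolute difference of 0.19, with all 3 arrays above GFP in 31 (40.8%) and below it in 21 (27.6%), against the same 32.5% and 25.6% of all genes. With limma 0 genes of these lists had an adjusted p under 0.05. At an unadjusted p under 0.05 there were 13 of 76 mitochondrial, 3 of 27 assembly factor and 1 of 7 listed elongation genes (Eef1e1). These shares were near that of all genes, where 2540 of 18193 were.

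**Figure D5:**
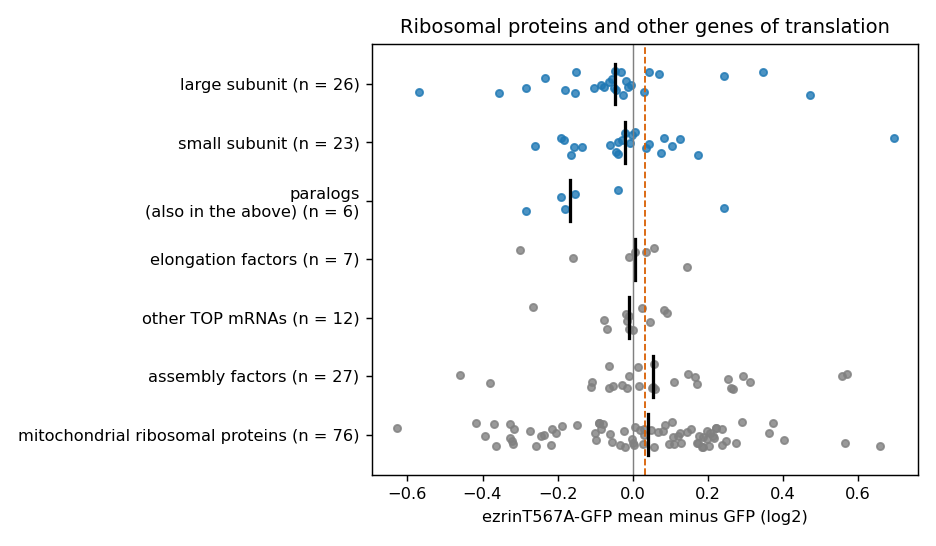
Difference between the ezrinT567A-GFP mean and GFP (log2) for each gene of the ribosomal protein groups (blue) and of other translation lists (grey); points are spread vertically at random, black bars are medians, and the dashed line is the median of all genes at 0.03. The medians of the large and small subunit genes are -0.05 and -0.02, and that of the mitochondrial ribosomal proteins is 0.04.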

How the data were processed

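The values of the 4 arrays were used as deposited: the authors' log2 signals, 1 per probe set, made with RMA per the submitters' processing notes. Which software ran RMA is not given in the sources used here. The log2 scale was read from the range of the values. RMA aligns the distributions of the arrays and hides any change in total mRNA. Of 45101 probe sets, 34945 with exactly 1 gene symbol in the platform annotation and no control role were used, and chromosomes came from a RefSeq table of GRCm38.p6, matched by gene ID for 18032 of 18193 genes. Each gene was represented by its brightest probe set by mean log2 over the 4 arrays.

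The test was limma 3.58.1 (R 4.3.3), run over all genes by lmFit and eBayes with its trend option, with Benjamini-Hochberg adjustment, two-sided, at a threshold of 0.05. Residual degrees of freedom were 2 and came from the ezrinT567A-GFP arrays, whose spread was also taken for the lone GFP array, and SE is the moderated standard error. With 4 arrays the smallest exact permutation p is 0.25. The number of arrays limits the precision. Medians and counts over lists carry no test. The members and lists were chosen with earlier results of these data known. Genes named were the members with the largest differences on one side of GFP (up to 10 per direction), the 6 smallest p, the 6 largest SD, paralogs with their parents, stalk and 5S genes, and up to 4 genes per other list by p. Other members and markers named were chosen after their values were seen. The fit was tested on simulated data with planted changes of 2 on the log2 scale. All mean differences of the members were smaller, so that run does not cover changes of their size. Figures: matplotlib 3.10.9, Python 3.11.15.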

Additional observations from a re-analysis of the deposited data

Results flagged for a closer look

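The control probe sets for 18S rRNA lie outside the comparison of genes and were singled out because their signal in 1 ezrinT567A-GFP array exceeded that of GFP: replicate 2 read 2.26 above GFP on the log2 scale, while replicates 1 and 3 read -1.44 and -1.33 from it.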

How the results depend on the processing

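No paired analysis was possible because the single GFP array shares no set of replicate numbers with the ezrinT567A-GFP arrays. The count of ribosomal protein genes called by limma was 0 under all 10 alternatives run for it, while over all genes the count of 0 became 34 after quantile normalization, 26 after centring, 6 when probe sets were averaged by gene, 3 without dim genes and 9 with a robust prior. The median of the ribosomal protein genes stayed between -0.041 and -0.030 when a replicate was left out. It was -0.086 after centring (large subunit -0.096, small subunit -0.067, 3 genes above GFP in all arrays) and 0.00030 with the _at kind of probe set alone, which kept 26 genes (large -0.014, small 0.0076, 2 above and 9 below). The small subunit median was -0.0042 after quantile normalization, -0.044 when probe sets were averaged and -0.0043 with the probe sets that also list pseudogenes, where 15 genes lay above GFP in all arrays.

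Of 305 recomputed differences of 32 named genes, 289 kept their direction and 0 were called by limma. Signs turned for Rpl22 (0.0044 after quantile normalization), for Rpl35 (-0.017), Rpl38 (-0.0042) and Rps29 (-0.0052) after centring, for Rps3 (-0.18) and Rps4x (0.25) when probe sets were averaged, and for Rps10 (0.0055) and Rps9 (0.11) with the _at kind alone, where a dim probe set stood for each. When 1 replicate was left out, differences ran from -0.071 to 0.017 for Rpl22, from -0.30 (without replicate 2) to 0.022 (without 1) for Rpl22l1, from -0.81 (without 2) to 1.13 (without 3) for Rpl27a, from -0.020 (without 2) to 0.77 (without 1) for Rpl39l, from -0.036 to 0.0087 for Rplp2 and from -0.028 to 0.17 for Rps6. The causes of these shifts were not tested. The number of arrays limits the precision.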
